A study of Mus musculus with 24 samples.

Results

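Mbp, Pmp22, Sox10, S100b, Prx and Mag, a set of 6 genes known from Schwann cells and myelin, were followed across 24 RNA sequencing libraries of mouse uterus and endometriotic lesions. They were found by gene symbol in the deposited count table and are 6 of its 56691 genes. The set was proposed with measured results of these data in view, and which measured values the genes were chosen by is not recorded. The fitted differences are therefore given as descriptions, and none is independent support for the choice of genes. The genes did not move as one set. Mbp stood above uterus in all lesion libraries and Mag in most of them. Pmp22 had lower means in lesions, called only against eutopic uterus at 3 months. Sox10, low in all groups, had its lowest mean in lesions at 1 month, with 0 to 16 counts per library. Its call against eutopic uterus at that time was lost in 10 of 14 other settings. Prx differed from eutopic uterus at neither time.

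The study used surgery to induce endometriosis, the growth of uterine tissue outside the uterus, in mice aged 8 weeks, and a sham operation in controls. Tissue was collected on pregnancy day 3.5, at 1 month or 3 months after surgery, from the uterus of sham-operated mice (sham), from the uterus of operated mice that carried lesions (eutopic), and from those lesions (labelled ectopic), with 4 libraries in each of the 6 groups. All mice had a mixed C57BL/6 and SV129 background. The labels give Pgrcre/+Rosa26mTmG/+ as the genotype of the lesions and Rosa26mTmG/+ as that of eutopic and sham uterus, whereas the series text gives the Cre driver to the mice with endometriosis. Rosa26mTmG is a fluorescent reporter that changes colour where Cre is active, and Pgrcre places Cre under the progesterone receptor gene. By the labels, genotype and tissue cannot be told apart in comparisons with lesions, and by the series text genotype and surgery cannot be told apart in comparisons with sham. The 1-month mice of all groups and the 3-month sham mice are labelled fertile, and the 3-month mice with endometriosis subfertile, so time, age and fertility label cannot be told apart in the latter. The labels do not tie a library to an animal, so p-values measure the spread between these samples, which may in part be technical.

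Schwann cells are the glia of peripheral nerves. Myelinating Schwann cells wrap single large axons in compacted membrane, and non-myelinating ones hold bundles of thin axons such as the autonomic and sensory fibres of the uterus. Sox10 is the transcription factor that sets and keeps Schwann cell identity, and together with Egr2 it drives myelin genes. Mbp and Pmp22 encode proteins of compact myelin, Mag encodes a sialic-acid-binding receptor on the myelin membrane that faces the axon, Prx encodes the scaffold protein periaxin of myelinating Schwann cells, and S100b encodes a calcium-binding protein used as a glial marker. Most of these genes are also active elsewhere: Pmp22 in epithelia and fibroblasts, S100b in adipocytes and other cells, Prx in endothelium, and the Mbp gene also makes golli transcripts in immune cells.

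Promoter sequence was available from RefSeq (build GRCm38.p6) for 4 of the 6 genes, and not for Sox10 and Mbp. The 250 bases before the most upstream start are shown for Mag, Pmp22 and S100b, the 3 genes with such a sequence for which lesions differed from eutopic uterus at 3 months, so that the search for a SOX core can be followed. Capitals mark ACAAAG, searched on both strands and thus also as CTTTGT, which is the core bound by SOX proteins.
Mag, chr7:30914923-30915172, minus strand: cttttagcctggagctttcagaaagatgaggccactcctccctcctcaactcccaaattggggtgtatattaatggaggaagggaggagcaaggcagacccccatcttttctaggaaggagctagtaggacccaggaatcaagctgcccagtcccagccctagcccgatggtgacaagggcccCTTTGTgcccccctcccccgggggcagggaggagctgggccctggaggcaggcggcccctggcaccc
Pmp22, chr11:63128732-63128981, plus strand: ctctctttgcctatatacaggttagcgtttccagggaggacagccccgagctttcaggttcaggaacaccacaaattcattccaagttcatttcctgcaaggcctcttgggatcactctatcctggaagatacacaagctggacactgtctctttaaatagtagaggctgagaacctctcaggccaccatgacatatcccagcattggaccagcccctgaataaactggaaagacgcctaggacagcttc
S100b, chr10:76253586-76253835, plus strand: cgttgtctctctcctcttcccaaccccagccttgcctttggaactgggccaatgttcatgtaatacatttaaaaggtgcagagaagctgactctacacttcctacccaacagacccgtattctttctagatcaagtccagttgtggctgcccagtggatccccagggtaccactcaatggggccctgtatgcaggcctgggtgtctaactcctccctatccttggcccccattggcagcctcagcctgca
In Mag the core lies 67 bases before the start, on the strand opposite to the gene. It was found in 2 of the 9 windows of the 4 genes, and in 16.5% of 32851 windows of this length over all genes. Both windows belong to Mag, overlap and hold the same site, which lies 126 bases before the other start. A match describes the letters and not a bound site, and its absence from the other windows says nothing about the factor.

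Total counts per library ran from 45133642 to 59407134. Libraries of a group were least alike in lesions at 3 months, where the correlation of log2 CPM between libraries, taken across genes that are not independent replicates, was 0.837 to 0.975, against 0.958 to 0.990 within sham and eutopic groups. Several lesion libraries held transcripts of other tissues, which bears on every comparison with lesions. Lesion library 1 at 3 months had a summed level of 23100 CPM (counts scaled to library size with TMM factors) for 8 ovarian steroid synthesis genes, against 9.89 to 17.0 CPM in the 16 uterine libraries. At 3 months lesion library 2 held 51100 CPM of skeletal muscle genes, library 3 16200 CPM and library 4 8760 CPM, against 108 to 347 CPM in uterus, and library 2 also held 8580 CPM of adipocyte genes. Lesion library 2 at 1 month held 62000 CPM of pancreas and liver genes, against at most 3.02 CPM in uterus. Uterine genes such as Pgr and Hoxa10 summed to 1870 to 2430 CPM in uterus, 1170 to 1670 CPM in lesions at 1 month and 157 to 1140 CPM in lesions at 3 months, lowest in libraries 1 and 2. Sham library 4 at 3 months was the lowest of its group for Pmp22, at 91.3 CPM against 155 to 175 CPM in the other libraries.

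In the 16 uterine libraries the genes were present at very different levels. Per kilobase of exon (GENCODE M21 gene models), Pmp22 had a mean level of 70.7 CPM, Mbp 1.68, Prx 1.22, S100b 0.338, Mag 0.182 and Sox10 0.159 CPM. Differences between the 6 groups held 92.3% of the variance of Mbp across libraries on the log2 scale, and 44.1% to 55.8% of that of the other 5 genes.

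**Figure D1:**
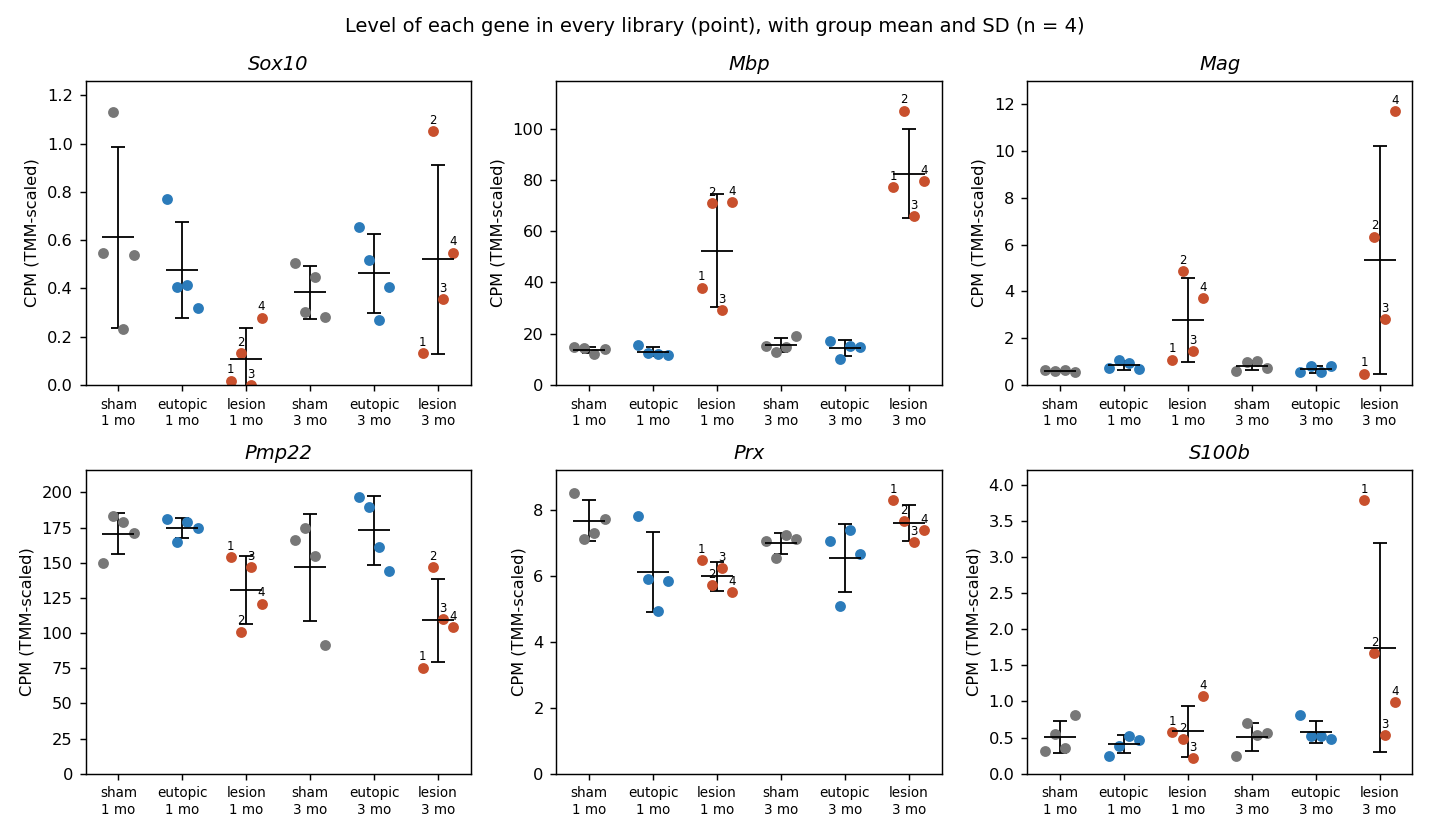
Level of each of the 6 genes in CPM (TMM-scaled, linear axes from 0) in the 24 libraries; points are libraries (numbers mark lesion libraries), horizontal marks are means and bars are SD (n = 4), cut at 0. All 8 lesion libraries lie above the uterine libraries for Mbp, while Mag is low in lesion library 1 at 3 months and S100b is highest there.

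Lesions against eutopic uterus of the same time showed what set lesions apart from the uterus of mice with the same surgery. At 1 month Mbp and Mag were higher and Sox10 lower in lesions, 3 of 6 genes called (edgeR quasi-likelihood test, Benjamini-Hochberg adjusted p under 0.05 over 22249 genes), against 20.7% of all genes. At 3 months Mbp, Mag and S100b were higher and Pmp22 lower, 4 of 6 genes, against 40.5% of all genes. The median log2 fold change of the 6 genes was 0.24 at 1 month and 0.90 at 3 months, beside -0.012 and 0.042 over all genes tested. Against sham, whose comparisons share the lesion libraries, 3 of 6 genes were called at 1 month, against 15% of all genes, and 3 of 6 at 3 months, against 41.6%. Leaving out 1 library at a time gave, against eutopic uterus, 1 or 2 calls at 1 month in place of 3, and 3 or 4 at 3 months. Over all genes these fits gave 2595 to 4706 calls at 1 month in place of 4607, and 7656 to 10862 at 3 months in place of 9013. In tissue libraries such as these, fewer cells of a type and less RNA per cell cannot be told apart.

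Sox10 (ENSMUSG00000033006.11), the lineage transcription factor, was near the limit of detection everywhere, with 0 to 64 counts per library. In eutopic uterus at 1 month the 4 libraries stood at 0.770, 0.406, 0.413 and 0.318 CPM. In lesions at 1 month they stood at 0.0179, 0.133, 0 and 0.279 CPM, and the library at 0 allows a level of up to 0.0551 CPM by counting error alone. Every lesion library was below every eutopic library at this time, which 31.6% of all genes showed in either direction. The log2 fold change was -2.13 ± 0.74 SE (adjusted p = 0.0468), and against sham, at 0.548, 1.13, 0.232 and 0.540 CPM, it was -2.49 ± 0.74 (adjusted p = 0.0283) with overlapping groups. The call against sham was lost in 5 of 14 other settings, and that against eutopic uterus in 10 of 14 other settings, with log2 fold changes of -3.38 to -1.72. It was lost without any 1 of the 4 eutopic libraries, and without lesion library 1, 2 or 3 (adjusted p = 0.111, 0.0833 and 0.0924).

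At 3 months Sox10 levels in lesions overlapped those of uterus. Lesions stood at 0.131, 1.05, 0.357 and 0.548 CPM and eutopic uterus at 0.654, 0.518, 0.270 and 0.408 CPM. The groups overlapped, with a log2 fold change of 0.16 ± 0.67 (adjusted p = 0.868), and without library 2, the highest lesion, it was -0.42. Library 2 also held the most skeletal muscle and adipocyte transcripts. Across the 8 lesions Sox10 had r = 0.730 with skeletal muscle genes and 0.694 with adipocyte genes (adjusted p = 0.244 for each, exact permutation tests). Without the 2 libraries farthest from the median of the list, r was 0.498 and 0.194. The part of these tissues in the Sox10 level was not tested. Between the times, Sox10 was 2.25 ± 0.75 higher in lesions at 3 months on the log2 scale (adjusted p = 0.0562).

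Mbp (ENSMUSG00000041607.18), myelin basic protein, was the gene with the clearest difference. Eutopic uterus at 1 month held 15.8, 12.5, 12.1 and 11.9 CPM, and sham 14.7, 14.3, 12 and 13.9 CPM. Lesions at 1 month held 38.0, 70.8, 29.1 and 71.4 CPM. All 4 lesions exceeded all uterine libraries, and libraries 2 and 4 were about alike and well above libraries 1 and 3. At this time groups did not overlap for 31.6% of all genes against eutopic uterus and 30.5% against sham. The log2 fold change was 2.0 ± 0.24 SE against eutopic uterus (adjusted p = 6.72e-05) and 1.93 ± 0.24 against sham (adjusted p = 0.000146), 2 comparisons that share the lesion libraries.

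Lesions at 3 months held 77.3, 107, 65.8 and 79.6 CPM of Mbp. Eutopic uterus held 17.3, 10.2, 15.3 and 15 CPM and sham 15.4, 13.0, 14.8 and 19.2 CPM. Again no lesion library came near a uterine one; at this time groups did not overlap for 23.9% of all genes against eutopic uterus and 21.3% against sham. Mbp was 2.51 ± 0.25 higher than in eutopic uterus on the log2 scale (adjusted p = 1.17e-06) and 2.40 ± 0.25 higher than in sham (adjusted p = 1.95e-06). Against eutopic uterus the call held under all 14 other settings at 1 month (log2 fold change 1.80 to 2.19) and all 15 at 3 months (2.30 to 2.61).

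Cell type markers moved with Mbp in some lesions and not in others. Macrophage genes (8 genes listed after values were seen) summed to 1540, 4130, 1440 and 3570 CPM in lesion libraries 1 to 4 at 1 month and to 227, 9030, 3800 and 7900 CPM at 3 months, against 256 to 626 CPM in uterus. T cell genes summed to 167 to 501 CPM in lesions at 1 month, and to 15.2, 309, 256 and 770 CPM at 3 months, against 23.0 to 67.7 CPM in uterus. In library 1 at 3 months macrophage, T cell and skeletal muscle genes were all below the uterine ranges, and its Mbp level of 77.3 CPM lay between those of the other lesions of that time. Without libraries 1 and 2 at 3 months the log2 fold change of Mbp was 2.30 ± 0.26 (adjusted p = 2.03e-06). By RefSeq, Mbp overlaps the long non-coding RNA Gm52337 and the pseudogene Rpl21-ps8, and because the strand setting of the counting is not given, reads of these cannot be told apart from those of Mbp; counts per gene also do not separate myelin from golli transcripts.

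Pmp22 (ENSMUSG00000018217.13), peripheral myelin protein, had the highest level of the 6 genes and was the one with lower values in lesions at both times. At 1 month eutopic uterus held 181, 165, 179 and 175 CPM and lesions 154, 101, 147 and 121 CPM. The groups did not overlap, which 31.6% of all genes showed in either direction. The log2 fold change of -0.42 ± 0.19 did not pass the test (adjusted p = 0.119, and 0.00788 to 0.284 over the other settings). It was called by limma voom (adjusted p = 0.00788) and when the fit held only the 2 groups (adjusted p = 0.0315). At 3 months eutopic uterus held 197, 190, 161 and 144 CPM and lesions 75.5, 147, 110 and 104 CPM, overlapping in library 2. This difference of -0.66 ± 0.19 on the log2 scale passed the test (adjusted p = 0.00938), and the call was lost when the fit held only the 2 groups (adjusted p = 0.0703).

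Against sham, Pmp22 differed by -0.38 ± 0.19 at 1 month (adjusted p = 0.184) and by -0.42 ± 0.19 at 3 months (adjusted p = 0.0797). Without sham library 4, the lowest of its group for Pmp22, the 3-month difference was -0.60 (adjusted p = 0.0102). Without lesion library 2, the highest of its group, it was also -0.60 (adjusted p = 0.0212). Both libraries are named here by their Pmp22 level, and leaving out either one lowers the difference by construction. These 2 values are therefore no support for a difference from sham. Fibroblast genes, which mark a cell type that expresses Pmp22, summed to 5700, 21800, 14100 and 13200 CPM in lesion libraries 1 to 4 at 3 months and to 13500 to 32500 CPM in uterus. Library 1 was lowest for both the list and Pmp22, and library 2 highest among these lesions for both; the part of fibroblasts in the Pmp22 difference was not tested.

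Mag (ENSMUSG00000036634.16), the myelin-associated glycoprotein, was higher in most lesions. Eutopic uterus held 0.717, 1.07, 0.942 and 0.669 CPM at 1 month, and lesions 1.09, 4.87, 1.45 and 3.72 CPM. Every lesion library was above every eutopic one, although library 1 only just, and 31.6% of all genes did not overlap in either direction. The log2 fold change was 1.71 ± 0.59 (adjusted p = 0.0439), and against sham, at 0.574 to 0.648 CPM, it was 2.19 ± 0.60 (adjusted p = 0.0182). The call against eutopic uterus was lost without any 1 of the 4 eutopic libraries (adjusted p = 0.0781 to 0.109) and without lesion library 2 (1.28, adjusted p = 0.159) or 4 (1.52, adjusted p = 0.113). That against sham was lost without lesion library 2 (adjusted p = 0.0748) or 4 (0.0565), or without sham library 3 (0.0511) or 4 (0.0509).

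At 3 months lesions held 0.486, 6.35, 2.81 and 11.7 CPM of Mag, and eutopic uterus 0.539, 0.808, 0.559 and 0.798 CPM. Library 1 was below all 4 eutopic libraries and the other 3 lesions were far above them. Against eutopic uterus the difference was 2.98 ± 0.61 on the log2 scale (adjusted p = 0.000806), and 2.68 ± 0.60 against sham (adjusted p = 0.00161). Without libraries 1 and 2 it was 3.38 ± 0.49 against eutopic uterus (adjusted p = 2.38e-05). With only the 2 groups in the fit, the call against sham was lost (adjusted p = 0.0652).

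In library 1 at 3 months, where macrophage and T cell genes were below the uterine ranges and B cell genes, at 7.97 CPM, within theirs of 5.80 to 18 CPM, Mag was low and Mbp was not. Across the 8 lesion libraries of both times, log2 Mag followed the log2 summed level of macrophage genes (Pearson r = 0.944, adjusted p = 0.00982; Spearman rho = 0.929, adjusted p = 0.0402; exact permutation tests, two-sided, adjusted over 36 relations of the 6 genes with 6 lists). The relation with B cell genes had r = 0.876 (adjusted p = 0.0132) and rho = 0.976 (adjusted p = 0.0143, exact permutation tests), and that with T cell genes r = 0.886 (adjusted p = 0.00982) and rho = 0.905 (adjusted p = 0.0548, exact permutation tests). Without the 2 libraries farthest from the median of the list, r was 0.931, 0.896 and 0.806 in that order. Mag and skeletal muscle genes had r = 0.719 (adjusted p = 0.244) and rho = 0.667 (adjusted p = 0.249, exact permutation tests). Without the 2 farthest libraries that r was 0.848, so a high r was not particular to the immune lists. For the ovarian list r was -0.464, and 0.853 without the 2 farthest, and for adipocyte genes it was 0.371 and 0.0862. Mbp and macrophage genes had r = 0.357 (adjusted p = 0.542) and rho = 0.571 (adjusted p = 0.340), and Sox10 and macrophage genes r = 0.603 (adjusted p = 0.397) and rho = 0.857 (adjusted p = 0.0964, exact permutation tests). Without the 2 libraries farthest from the median these r were 0.950 and 0.934, of about the size of that of Mag. The B cell and macrophage lists were drawn up after values were seen, and 4 libraries a time point are too few for a correlation within each.

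By RefSeq the coding neighbours of Mag are Hamp2 and Cd22, the latter a B cell receptor of the same sialic-acid-binding family, and Cd22 moved with Mag. It stood at 22.9, 64.2, 16.2 and 51.5 CPM in lesions at 1 month and at 3.38, 77.7, 41.5 and 87.0 CPM at 3 months, against 2.06 to 4.74 CPM in the 8 eutopic libraries. The lesion without raised Cd22 was library 1 at 3 months, the lesion with the lowest Mag. The part of immune cells, or of reads from the neighbouring gene, in the Mag difference was not tested.

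**Figure D2:**
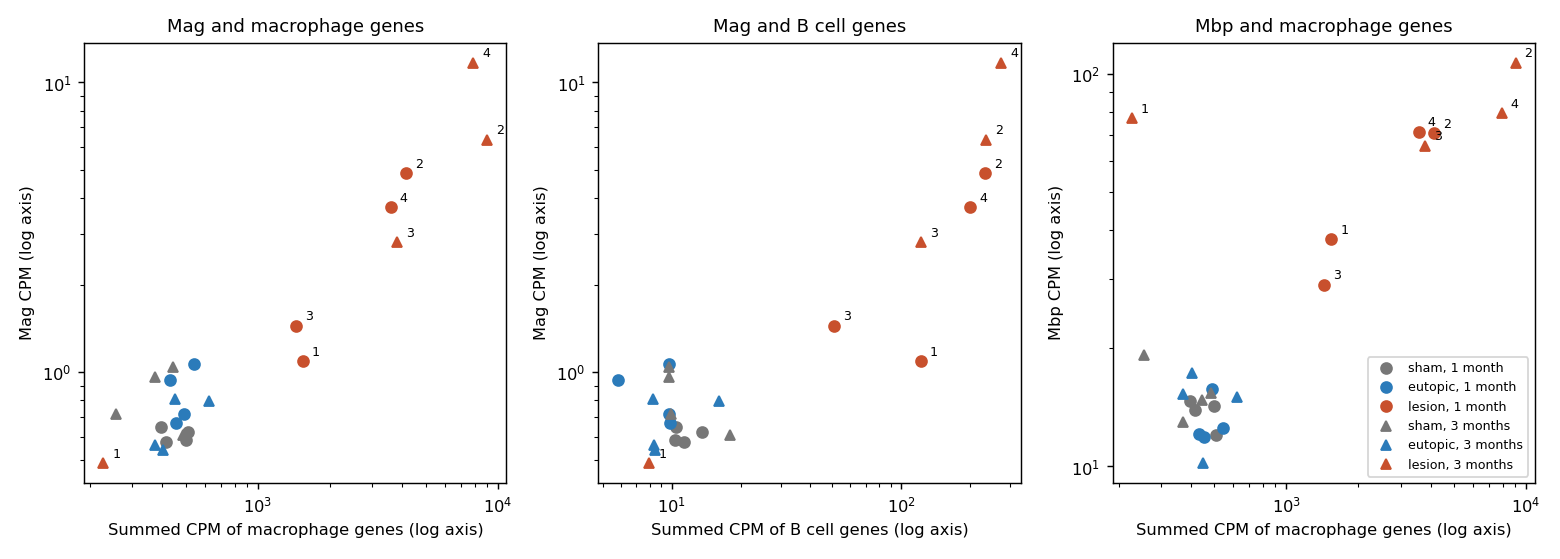
Mag or Mbp level against the summed CPM of macrophage or B cell genes in the 24 libraries, all axes log; colours mark sham, eutopic and lesion libraries, circles 1 month, triangles 3 months, and numbers the lesion libraries. Mag lies low in lesion library 1 at 3 months, where the macrophage sum is 227 CPM, whereas Mbp is at 77.3 CPM there.

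Prx (ENSMUSG00000053198.15), periaxin, kept within 4.94 to 8.52 CPM in all 24 libraries. Lesions held 6.47, 5.72, 6.24 and 5.52 CPM at 1 month and 8.31, 7.67, 7.02 and 7.38 CPM at 3 months, and eutopic uterus 7.82, 5.90, 4.94 and 5.84 CPM and 7.06, 5.08, 7.38 and 6.67 CPM. The differences from eutopic uterus were -0.03 ± 0.15 (adjusted p = 0.895) and 0.21 ± 0.15 (adjusted p = 0.252). At 1 month all lesions were below all sham libraries, which held 7.12 to 8.52 CPM, with a log2 fold change of -0.36 ± 0.15 (adjusted p = 0.106) and 30.5% of all genes without overlap. That difference was called by DESeq2 (adjusted p = 0.0382) and by limma voom (adjusted p = 0.0154). All 4 lesions at 3 months were above all 4 at 1 month, by 0.34 ± 0.15 (adjusted p = 0.139), a separation shown by 9.29% of all genes. In the 16 uterine libraries endothelial genes, which mark another cell type with Prx, summed to 646 to 1300 CPM, and in lesions to 539 to 871 CPM. By RefSeq the non-coding RNA Gm15541 overlaps Prx.

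S100b (ENSMUSG00000033208.8) had 12 to 203 counts per library. At 1 month lesions held 0.572, 0.479, 0.220 and 1.07 CPM and eutopic uterus 0.245, 0.389, 0.529 and 0.468 CPM, with overlapping groups and a log2 fold change of 0.52 ± 0.52 (adjusted p = 0.502). At 3 months lesions held 3.79, 1.67, 0.535 and 0.991 CPM and eutopic uterus 0.808, 0.518, 0.520 and 0.479 CPM. Library 1 was far above the rest, and library 3 lay within the eutopic range. The log2 fold change of 1.59 ± 0.52 (adjusted p = 0.0189) became 0.87 without library 1 (adjusted p = 0.133) and 0.36 without libraries 1 and 2 (adjusted p = 0.600). The call was lost in 6 of 15 other settings. Against sham the log2 fold change was 1.77 ± 0.52 (adjusted p = 0.0102), and 1.05 without library 1 (adjusted p = 0.0697).

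Library 1, the highest for S100b, was the library with the ovarian steroid synthesis genes, and library 2, next in order, was the highest for adipocyte genes. Across the 8 lesions S100b and the ovarian list had r = 0.849 (adjusted p = 0.0246) and rho = 0.667 (adjusted p = 0.249, exact permutation tests). Without the 2 libraries farthest from the median r was 0.451, so the relation rests on those libraries. For adipocyte genes r was 0.296 (adjusted p = 0.587) and rho 0.476 (adjusted p = 0.515, exact permutation tests). The relation with the ovarian list was not particular to S100b. Prx and that list had r = 0.762 (adjusted p = 0.0132) and rho = 0.786 (adjusted p = 0.144, exact permutation tests), and r was 0.656 without the 2 farthest libraries. Mbp and that list had r = 0.423 (adjusted p = 0.492) and rho = 0.810 (adjusted p = 0.131, exact permutation tests). The part of ovarian or fat tissue in the S100b difference was not tested beyond these values.

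**Figure D3:**
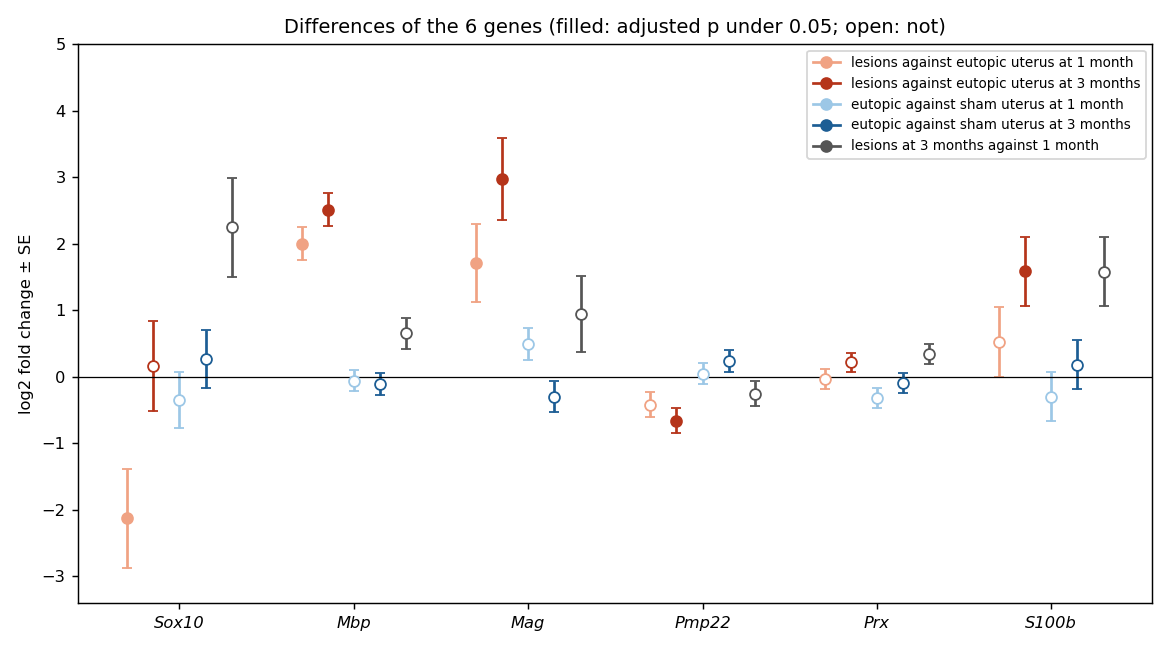
Log2 fold change ± SE of the 6 genes in 5 comparisons (edgeR fits across all genes); filled points passed an adjusted p under 0.05 and open points did not. Filled points occur only in comparisons of lesions with eutopic uterus, and the points of eutopic against sham uterus lie between -0.35 and 0.49.

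From 1 month to 3 months in lesions none of the 6 genes was called by edgeR, against 10.9% of all genes. The unadjusted p was under 0.05 for 4 of them, Mbp (0.66 ± 0.23, adjusted p = 0.0744), Sox10, S100b (1.57 ± 0.52, adjusted p = 0.0545) and Prx. DESeq2 called these 4 and limma voom called 0. Leaving out single libraries gave 0 to 3 calls, with 3 without lesion library 4 at 1 month or library 3 at 3 months, 2 without library 1 at 3 months, and 1 without library 2 at 1 month or library 4 at 3 months. The difference between lesions and eutopic uterus was itself compared between the times, and no gene of the 6 was called by edgeR, DESeq2 or limma voom, against 0.769% of all genes by edgeR. The largest value was that of Sox10, at 2.29 ± 1.00 (adjusted p = 0.283), the only 1 of the 6 with an unadjusted p under 0.05. That Sox10, S100b and Pmp22 passed the test against eutopic uterus at 1 of the times only is thus not shown to be a difference between the times.

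Eutopic uterus was compared with sham uterus to see whether the uterus itself differed in mice with endometriosis. None of the 6 genes was called at either time by edgeR, DESeq2 or limma voom, and none had an unadjusted p under 0.05, with 0.00943% of 21208 genes called by edgeR at 1 month and 0% at 3 months. Mag was the only gene of the 6 whose groups did not overlap, at 0.669 to 1.07 CPM in eutopic uterus and 0.574 to 0.648 CPM in sham at 1 month, a pattern of 3.53% of all genes. Its log2 fold change was 0.49 ± 0.24 (adjusted p = 0.879), and at 3 months it was -0.30 ± 0.24 (adjusted p = 0.996). Log2 fold changes of Mbp were -0.06 ± 0.16 at 1 month and -0.11 ± 0.16 at 3 months, and those of Pmp22 0.04 ± 0.16 and 0.24 ± 0.16. Between 1 and 3 months, none of the 6 was called in eutopic uterus (0.00943% of all genes) or in sham (0%) by any of the 3 tools, and none had an unadjusted p under 0.05.

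The order of the groups by mean level differed from gene to gene. Mbp was highest in lesions at 3 months (82.4 ± 17.4 CPM, SD, n = 4), then in lesions at 1 month (52.3 ± 22.0 CPM), and the uterine groups followed at 13.1 to 15.6 CPM, within their spread of each other. Mag had the same 2 groups on top (5.33 ± 4.87 and 2.78 ± 1.81 CPM), which overlapped each other, before uterine groups at 0.607 to 0.848 CPM. S100b was highest in lesions at 3 months (1.75 ± 1.44 CPM), and the other 5 groups lay within 0.408 to 0.584 CPM and overlapped. Pmp22 had both lesion groups at the bottom (131 ± 24.3 and 109 ± 29.4 CPM), next to sham at 3 months (147 ± 37.9 CPM) and below the other uterine groups at 171 to 175 CPM. Sox10 was lowest in lesions at 1 month (0.108 ± 0.129 CPM), and lesions at 3 months (0.520 ± 0.390 CPM) stood among the uterine groups at 0.383 to 0.612 CPM. Prx ranged from 5.99 ± 0.443 CPM in lesions at 1 month to 7.67 ± 0.622 CPM in sham at 1 month.

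Levels of the 6 genes were also related to each other in 15 pairs within the 16 uterine libraries and within the 8 lesions, 30 relations in all. In uterus none passed the adjusted threshold, the strongest being Mbp with Prx (r = 0.653, adjusted p = 0.0898; rho = 0.474, adjusted p = 0.392; permutation tests). In lesions Mbp and Sox10 had r = 0.921 (adjusted p = 0.0461) and rho = 0.786 (adjusted p = 0.279, exact permutation tests), and r was 0.701 without the 2 libraries farthest from the median. The correlation pools both times, and Sox10 had no more than 45 counts in any lesion. Mbp and Mag had r = 0.492 (adjusted p = 0.548) and rho = 0.571 (adjusted p = 0.557, exact permutation tests).

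Other genes of myelin, 18 listed and 17 tested, showed rises of part of the list in lesions. Against eutopic uterus 5 rose and 2 fell at 1 month, with a list median of 0.87 on the log2 scale beside -0.012 over all genes, and 9 rose and 2 fell at 3 months, with a median of 1.40 beside 0.042. Of all genes 12% rose and 8.76% fell at 1 month, and 23.4% rose and 17.1% fell at 3 months. Egr2, the transcription factor that acts with Sox10 on myelin genes and is also induced in immune cells, rose by 2.25 ± 0.56 at 1 month (adjusted p = 0.00914) and by 3.18 ± 0.58 at 3 months (adjusted p = 0.000291). Its levels in lesions were 8.74, 27.9, 10.6 and 19.4 CPM and then 2.35, 64.2, 22.2 and 46.8 CPM, against 2.97 to 4.11 CPM in the 8 eutopic libraries. As with Mag, library 1 at 3 months was the lowest, below every eutopic library. The 3-month Egr2 call was lost when a replicate block was added to a fit of the 2 groups (2.63, adjusted p = 0.17).

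Pou3f1, a transcription factor of the promyelinating stage, rose by 6.13 ± 1.08 at 3 months (adjusted p = 0.000215) from eutopic libraries with 0 to 4 counts, where the fitted value depends on the prior count. Gldn, the nodal adhesion protein gliomedin, rose by 5.50 ± 0.98 (adjusted p = 0.000234), with 8.91 CPM in library 1 and 0.295 to 2.25 CPM in the other lesions. It was 2.30 without libraries 1 and 2 (adjusted p = 0.0132).

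Of the genes of this list that rose at both times, Cadm4, an adhesion molecule of the Schwann cell membrane, did so by 2.08 ± 0.41 and 2.64 ± 0.41 (adjusted p = 0.00255 and 8.55e-05). All lesions were above all eutopic libraries at each time, and 31.6% and 23.9% of all genes did not overlap in either direction. The 3-month Cadm4 call was lost when a replicate block was added to a fit of the 2 groups (2.54, adjusted p = 0.0619). Nfasc, which encodes neurofascins of node and paranode, rose by 2.77 ± 0.72 and 2.94 ± 0.73, with adjusted p = 0.0117 and 0.0033, but lesion library 1 at 3 months, at 1.10 CPM, was below every eutopic library, and the 3-month call was lost when the fit held only the 2 groups (adjusted p = 0.0821). Ncmap, a peripheral myelin membrane protein, rose by 2.38 ± 0.65 and 2.66 ± 0.65 (adjusted p = 0.0147 and 0.00299); at 1 month the call was lost without lesion library 2 (adjusted p = 0.0532) or 4 (0.0533) or eutopic library 3 (0.0521). In the other direction Pllp, plasmolipin, which epithelia also express, fell at 3 months, with a eutopic mean of 55.7 CPM and a lesion mean of 1.70 CPM (-5.03 ± 0.50, adjusted p = 1.56e-06). Its fall was larger at 3 months than at 1 month by 3.81 on the log2 scale (adjusted p = 0.0152), the only called change between the times in this list. Gjb1, the gap junction protein of myelin and epithelia, was at 0.0697 to 0.396 CPM in lesions at 3 months and 1.95 to 3.25 CPM in eutopic uterus (-3.26 ± 0.78, adjusted p = 0.00262).

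**Figure D4:**
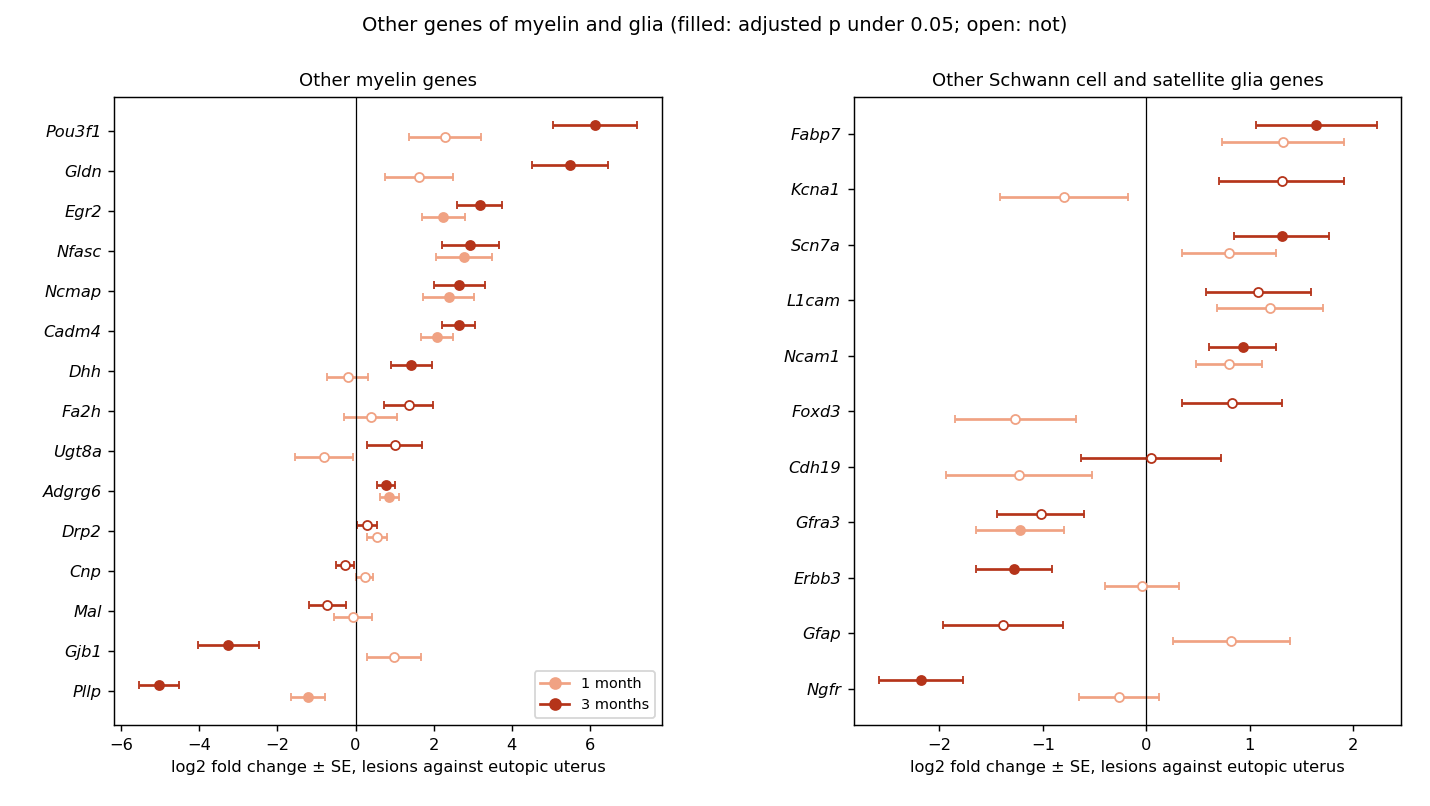
Log2 fold change ± SE of lesions against eutopic uterus at 1 month (light) and 3 months (dark) for genes of 2 lists, other myelin genes (15 of the 17 tested) and other Schwann cell and satellite glia genes (11); filled points passed an adjusted p under 0.05. Egr2, Nfasc, Ncmap, Cadm4 and Adgrg6 are filled to the right of 0 at both times, and Pllp to the left.

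Other genes of Schwann cells and satellite glia, 12 listed and 11 tested, had calls near the share of all genes. At 1 month 0 rose and 1 fell, Gfra3, a receptor of the artemin pathway (-1.22 ± 0.42, adjusted p = 0.0471), against 12% and 8.76% of all genes, with a list median of -0.045 beside -0.012. The Gfra3 call was lost without any 1 of the 4 eutopic libraries and without lesion library 1, 2 or 3 (adjusted p = 0.0506 to 0.118). At 3 months 3 rose and 2 fell, against 23.4% and 17.1% of all genes, with a list median of 0.82 beside 0.042. The lists of myelin genes and of Schwann cell and satellite glia genes were not tested against each other. Scn7a, a sodium channel of non-myelinating Schwann cells, rose by 1.31 ± 0.46 (adjusted p = 0.0282), Fabp7 by 1.64 ± 0.58 (adjusted p = 0.0302) and Ncam1 by 0.93 ± 0.32 (adjusted p = 0.0256). All 3 were highest in library 2, which held the most skeletal muscle and adipocyte transcripts. Scn7a stood at 22.1, 97.8, 28.4 and 16.6 CPM in the 4 lesions, Fabp7 at 0.598, 2.49, 0.357 and 0.759 CPM and Ncam1 at 26.4, 84.0, 35.9 and 54.1 CPM. Without library 2 none of the 3 was called, with log2 fold changes of 0.43 (adjusted p = 0.369), 0.78 (0.272) and 0.57 (0.154) in that order. The calls were also lost without eutopic library 2 or 4 for Scn7a, eutopic library 1, 3 or 4 for Fabp7, and eutopic library 2 or 4 or lesion library 4 for Ncam1 (adjusted p = 0.0508 to 0.0906). Ngfr, the low-affinity neurotrophin receptor, also present in stroma, fell, with eutopic libraries at 104, 54.6, 49.5 and 63.7 CPM and lesions at 19.0, 9.92, 23.0 and 7.95 CPM (-2.18 ± 0.41, adjusted p = 0.000347). Erbb3, the neuregulin receptor of Schwann cells and of epithelia, fell by 1.28 (adjusted p = 0.00834), and without libraries 1 and 2 the value was -0.71 (adjusted p = 0.0924). Over both lists together, 12 of 28 tested genes rose and 4 fell at 3 months, without libraries 1 and 2 it was 10 and 4 of 29, and with only the 2 groups in the fit 5 and 3 of 25. Over all genes the calls in either direction at 3 months were 9013, and 9452 and 3267 under these settings in that order. At 1 month 5 rose and 3 fell, without library 2 it was 4 and 1 of 29, with only the 2 groups 10 and 3 of 26, and with limma voom 11 and 2 of 28. Calls over all genes at 1 month were 4607, and 2707, 6717 and 10013 in that order. The counts of the lists did not always change in the direction of those of all genes. Without libraries 1 and 2 at 3 months, rises in the lists went from 12 to 10 while calls over all genes went from 9013 to 9452.

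Neuregulins are ligands of Erbb receptors, and among them Nrg1 is the axonal signal that sets myelination. Of 6 further genes of this pathway 5 were tested. At 1 month 1 rose and 0 fell, against 12% and 8.76% of all genes. This was Erbb4 (4.51 ± 1.19, adjusted p = 0.0125), from a eutopic mean of 0.0256 CPM, a call lost without lesion library 4 (3.32, adjusted p = 0.0692). At 3 months 0 rose and 3 fell, against 23.4% and 17.1% of all genes. Nrg2 fell by 1.25 (adjusted p = 0.0058), and Nrg4 had a log2 fold change of -2.27 (0.000748) and Erbb2 one of -0.74 (0.0185). The Erbb2 call was lost without library 2 (-0.51, adjusted p = 0.0555). It was also lost with only the 2 groups in the fit (adjusted p = 0.107) and with a replicate block added to that fit (0.124).

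Axon and neuron genes, 20 listed and 13 tested, moved in both directions. Nefh, the heavy neurofilament of large axons, rose by 1.10 ± 0.38 at 1 month (adjusted p = 0.0446) and 1.41 ± 0.38 at 3 months (adjusted p = 0.0063). All lesions were above all eutopic libraries at each time, and 31.6% and 23.9% of all genes did not overlap in either direction. The 1-month call was lost without any 1 lesion library or without eutopic library 2, 3 or 4 (adjusted p = 0.052 to 0.118), and that at 3 months without lesion library 4 (0.83, adjusted p = 0.0531). Npy, a peptide of sympathetic fibres, rose by 4.74 ± 1.09 and 5.13 ± 1.16 (adjusted p = 0.00612 and 0.00164). The neuronal tubulin Tubb3 rose by 3.16 ± 0.51 at 3 months (adjusted p = 9.75e-05) and the neuronal hydrolase Uchl1 by 1.82 ± 0.52 (adjusted p = 0.00838). Both were highest in library 1, which held the ovarian transcripts, Tubb3 at 14.1 CPM against 1.84 to 4.39 CPM in the other lesions and Uchl1 at 40.3 CPM against 3.51 to 6.83 CPM. Without library 1 Tubb3 was 2.14 higher (adjusted p = 3.63e-05), and Uchl1 was no longer called (0.37, adjusted p = 0.244). Dbh, the noradrenaline-making enzyme, had a log2 fold change of -3.42 ± 0.66 (adjusted p = 0.000456) from a eutopic mean of 0.509 CPM. Gap43, a protein of growing axons and Schwann cells, fell at 1 month, with eutopic libraries at 22.2 to 28.4 CPM and lesions at 2.02 to 9.91 CPM (-1.92 ± 0.37, adjusted p = 0.00253). At 3 months it fell too, with eutopic libraries at 17.1 to 29.9 CPM and lesions at 0.380 to 1.49 CPM (-4.84 ± 0.43, adjusted p = 5.53e-07). In all 2 rose and 1 fell at 1 month, with a median of -0.30, and 4 rose and 3 fell at 3 months, with a median of 0.11. Set beside the 12% and 8.76% of all genes at 1 month and the 23.4% and 17.1% at 3 months, these counts of 13 were near the background.

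Markers of other cells that express members of the set were examined as whole lists. Of 7 oligodendrocyte genes, the glia that myelinate in the brain, 2 were tested. The defining gene Mog was at 0 in all 8 lesion libraries, Opalin was at 0 in 7 with 0.336 CPM in library 1 at 3 months, and Olig2 was at 0 in 7 with 0.106 CPM in library 2 at 1 month. Olig1, too low to be tested, stood at 0.215, 0.106, 0.0551 and 0.349 CPM (3 to 20 counts) in lesions at 1 month and at most 0.0525 CPM in eutopic uterus. At 3 months it stood at 0.0747 CPM in library 1, 1.58 CPM (68 counts) in library 2 and 0 in libraries 3 and 4. Mobp, the other gene tested, was not called at either time, and Gpr17 reached 0.0873 CPM in lesions. The list summed to 15.7 to 117 CPM in lesions and 10.7 to 28.9 CPM in uterus, most of it Myrf, a transcription factor also found outside glia, which rose by 1.41 ± 0.42 at 3 months (adjusted p = 0.0109), and without library 2 was not called (0.57, adjusted p = 0.154). Of 7 melanocyte genes, a cell type that also expresses Sox10, 2 were tested, and Tyr reached at most 0.112 CPM, Tyrp1 0.0595 CPM, Dct 0.332 CPM and Slc45a2 0.0697 CPM in lesions. Mlana, too low to be tested, stood at 0, 0.372, 0.555 and 0.591 CPM (up to 28 counts) in lesions at 3 months, with at most 0.0709 CPM in eutopic uterus of that time. Pmel was tested and not called at either time. Mitf, which macrophages also express, rose by 1.01 ± 0.35 at 3 months (adjusted p = 0.0243), a call lost without lesion library 2 (0.73, adjusted p = 0.111) or 4 (0.0601) or eutopic library 2 (0.0675) or 4 (0.0638). That list summed to 15.4 to 94.2 CPM in lesions and 19.7 to 49.5 CPM in uterus.

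Genes whose pattern over the 24 libraries was most like that of Sox10 were sought among 14045 genes with a mean of at least 0 on the log2 CPM scale. With group means subtracted, the 5 highest Pearson r included those of Tank (0.842), Synj1 (0.824), Ell2 (0.820) and Slc37a2 (0.803). With group means kept they were Fbxl2 (0.708), Grip2 (0.687), Acadvl (0.655), Fbxo31 (0.653) and a gene without a symbol (0.650). Tank stood at 29.1 ± 2.17 CPM in eutopic uterus and 51.9 ± 11.1 CPM in lesions at 1 month, so that genes following Sox10 within groups need not follow it between groups. These values describe libraries that share tissue admixture, and the low counts of Sox10 limit them.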

How the data were processed

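RNA sequencing read counts per gene, in whole numbers and not normalized, were deposited by the authors for 24 libraries. Per the submitters' processing notes, bcl2fastq 1.9.0, STAR 2.7.9a, edgeR and genome build mm39 were used; for strand, counting mode and annotation release, no setting is given in the sources used here. Here edgeR 4.0.16 (R 4.3.3) was run with filterByExpr, TMM factors and the quasi-likelihood F-test on group means, with the SE from the F statistic. Comparisons with lesions were fitted on 24 libraries (22249 genes tested) and those among uterine groups on 16 (21208), with Benjamini-Hochberg adjustment over all of them and calls at an adjusted p under 0.05. All 6 genes passed the filter in both fits. CPM are scaled by TMM factors, and log2 CPM used a prior count of 2.

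The 6 genes and the gene lists were chosen with earlier results of these data known. The 6 were named in every comparison, and other listed genes if called, by size of change, up to 6 a list; those given with no call, and Cd22, were chosen after their values were seen. A few single genes that the rule would name are not reported here; list counts include them. Marker lists were summed in CPM. Correlations used log2 values and permutation tests, exact over 40320 orders for 8 libraries. Lengths came from GENCODE M21 and promoters and neighbours from RefSeq GRCm38.p6, used for names, lengths and sequence only. The procedure was tested on simulated counts. Alternatives were DESeq2 1.42.0, its size factors, limma 3.58.1 voom, no filter on low counts, other samples in the fit, a replicate block and leaving out libraries. Replicate numbers were checked as pairs by the correlation of deviations from group means: it was over 0.1 for all 4 pairs between eutopic uterus at 1 month and at 3 months (0.105 to 0.202), and not for all 4 between any other 2 groups. Depth was 45133642 to 59407134 counts per library, and floors cover counting error only.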

Additional observations from a re-analysis of the deposited data

Results flagged for a closer look

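In 2 of the 36 sets of 4 libraries (6 genes in 6 groups) a single library lay far from the other 3 for its group's range, above Dixon's critical value, and chance does this in about 1 in 20 sets. Mbp in eutopic uterus at 1 month was at 15.8 CPM in library 1, against 11.9 to 12.5 CPM in the others. S100b in eutopic uterus at 3 months was at 0.808 CPM in library 1, against 0.479 to 0.520 CPM. Neither library reached the lesion mean of its gene at that time.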

How the results depend on the processing

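Of 936 values of single genes under other settings, 837 kept direction and side of the threshold, 43 lost a call, 24 gained one and 32 changed sign; the cause of these changes was not tested, except that fewer samples or genes entered some fits. The number of the 6 genes called stayed within 1.5 times in 137 of 156 cases. These cases include the comparisons among uterine groups and the change between times, which had 0 calls as reported and under every setting. The 19 cases that moved were all in the other comparisons with lesions, so the pooled figure overstates how stable those were. Lesions against eutopic uterus had 3 calls at 1 month (1 without the filter, 1 to 2 leaving out single libraries) and 4 at 3 months (2 with only the groups compared, 1 with the replicate block). Lesions against sham had 3 at 1 month (5 by limma voom, 1 to 3 leaving out single libraries) and 3 at 3 months (1 with only the groups compared, 0 with the block). Lesions at 3 months against 1 month had 0 (4 by DESeq2, 1 with its size factors, 0 to 3 leaving out single libraries). The correlation of same-numbered libraries was over 0.1 for all 4 only between eutopic uterus at the 2 times. These uteri were collected at different times after surgery, so the correlation does not show pairs of animals. None of the 6 genes was called there with or without the block. Elsewhere the numbers are shared numbers only. Between lesions and eutopic uterus at 1 month 4 of 4 libraries correlated best with their own number, a hint from the data, and at 3 months 3 of 4. Under the block at 3 months the 28 other myelin and glia genes (25 tested there) had 0 rises against eutopic uterus in place of 12. Falls were 2 in place of 4. Over all genes the block gave 608 calls there in place of 9013, and 0 against sham in place of 9258. With only the groups compared, all genes gave 3267 and 2600 calls in that order. Adjusted p under the block at 3 months were 0.0741 for Mbp against sham and 0.134 and 0.214 for Mag against eutopic uterus and sham. At 1 month the block called Pmp22 against eutopic uterus (-0.451, adjusted p = 0.0189). Sign changes, all of values not called, follow on the log2 scale. With limma voom Mbp (eutopic against sham, 3 months) was 0.00278, Prx (lesions against eutopic, 1 month) 0.0706, S100b (eutopic against sham, 3 months) -0.0447, S100b (lesions against sham, 1 month) -0.0305 and Sox10 (eutopic, 3 months against 1) 0.00322. With the block Sox10 (lesions against eutopic, 3 months) was -0.00615. Without lesion libraries 1 and 2 at 3 months it was -0.0621, and S100b for the change between times -0.13. Leaving out single libraries spread values across 0 for eutopic against sham in Mbp (-0.202 to 0.0231), Prx (-0.159 to 0.00781) and S100b (-0.0518 to 0.378) at 3 months and Pmp22 (-0.0201 to 0.0699), S100b (-0.485 to 0.00588) and Sox10 (-0.684 to 0.108) at 1 month; for 3 months against 1 in eutopic uterus for Pmp22 (-0.0865 to 0.0583) and Sox10 (-0.258 to 0.285) and in sham for S100b (-0.177 to 0.331); for lesions against eutopic uterus in Prx at 1 month (-0.13 to 0.098) and Sox10 at 3 months (-0.419 to 0.484); and for lesions against sham in S100b at 1 month (-0.267 to 0.52) and Sox10 at 3 months (-0.151 to 0.747). Low counts of Sox10 and S100b limit these values.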
